A study of Mus musculus with 12 samples.

Results

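The 3 RNA-seq libraries labelled Gadd45a-KO were compared with the 3 libraries labelled WT, 6 of the 12 libraries of a series on fibroblasts turning into fat cells. The members are all genes counted in those libraries, without the 5 lines of each table that name no gene. Each table lists 37991 gene identifiers, and 16163 of them had enough reads to be tested. The WT libraries came from wild-type embryos, and the others from embryos whose genotype label is Gadd45a-/-, a germline allele present in every cell. Mice deficient for Gadd45a and for Ing1 had been interbred to give the genotypes of the series, on a C57BL/6N background. Embryonic fibroblasts were taken from male E15.5 embryos and grown for 4 passages. Both groups then received the same adipogenic cocktail at confluence: 0.5 mM of the phosphodiesterase inhibitor IBMX, 1 µM dexamethasone, 2 µM of the PPARγ agonist rosiglitazone and 10 µg/ml insulin for 48 h, followed by medium with insulin. RNA was collected on day 6. Beside these, 3 libraries labelled Ing1-KO (Ing1-/-) and 3 labelled DKO (both alleles) differ in the same Gadd45a label on an Ing1-/- background and share no library with the comparison. No batch is named in the labels. Nor do they tell if the replicates are distinct embryos or dishes, and p-values here cover only the library-to-library spread, which may be technical.

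Gadd45a encodes a small nuclear protein induced by genotoxic and nutrient stress. It binds the kinase MAP3K4 (MTK1), which acts on the p38 and JNK kinases, and the cell-cycle proteins PCNA, CDK1 and p21, and it is known as an adaptor of active DNA demethylation with the glycosylase TDG and the TET dioxygenases. Adipogenesis of fibroblasts begins with the factors C/EBPβ and C/EBPδ, which glucocorticoid and cyclic AMP induce. These switch on PPARγ and C/EBPα, and those in turn switch on the genes of lipid uptake, triglyceride storage and adipokine secretion.

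Each of the 6 libraries held between 46310012 and 52860419 gene reads. Levels are given as CPM, the counts of a gene scaled to the library total with TMM factors, with the SD over 3 libraries where a mean is given, and differences as log2 fold changes with their SE. A gene was called at an adjusted p under 0.05 in the edgeR quasi-likelihood test. The labelled cell type was checked against its markers. All 15 fibroblast genes listed were tested, and their summed level was 67250 to 71404 CPM in WT and 68281 to 68765 CPM in libraries labelled Gadd45a-KO. All 34 listed adipocyte genes were above the test's minimum as well.

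Gadd45a went against its label. It stood at 14.4, 17.9 and 15.1 CPM in WT replicates 1 to 3 and at 144, 141 and 144 CPM in libraries labelled Gadd45a-KO, from 689 to 825 reads in the former and from 6801 to 7664 reads in the latter. The groups do not overlap, and the mean was 9.06 times higher where the label says the gene is lost. On the log2 scale Gadd45a rose by 3.18 ± 0.11, with a 95% interval of 2.94 to 3.42 and an adjusted p of 2.08e-07 in the edgeR quasi-likelihood test. Libraries with the same label on an Ing1-/- background gave the same picture: 138 to 142 CPM in those labelled DKO against 13.4 to 18.4 CPM in those labelled Ing1-KO, a log2 fold change of 3.16 ± 0.11 (adjusted p = 2.18e-07, edgeR). The difference between the 2 effects was -0.02 on the log2 scale in the interaction term, which was not called. A count per gene does not show which exons were read, so whether these reads come from an intact or an altered transcript cannot be told. Every direction below therefore rests on the labels, and the group is called the libraries labelled Gadd45a-KO throughout. Ing1, which both labels leave intact, stood at 44.6, 47.9 and 43.6 CPM in WT and at 46.3, 47.3 and 44.4 CPM in libraries labelled Gadd45a-KO.

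The other called gene, E230016M11Rik, is a non-coding gene on the opposite strand that overlaps Gadd45a. It stood at 1.07, 1.15 and 0.956 CPM in WT and at 0.170, 0.122 and 0.0849 CPM in libraries labelled Gadd45a-KO, which is 48 to 53 reads against 4 to 9 reads. Its log2 fold change was -3.03 ± 0.25, with an interval of -3.58 to -2.48 and an adjusted p of 0.000756 (edgeR), and the groups do not overlap. On the Ing1-/- background it had 52 to 71 reads in the libraries labelled Ing1-KO and 3 to 5 reads in those labelled DKO. In the GRCm38 annotation Gadd45a runs over chr6:67035096-67037457 on the minus strand with 4 exons, and E230016M11Rik over chr6:67036599-67080654 on the plus strand. Exon 1 of E230016M11Rik covers all 238 bases of Gadd45a exon 3. The library kit does not mark strand, so reads from the shared stretch cannot be assigned to either gene, and the counting mode that would decide their fate is not given in the sources used here. The deposited counts were made on the earlier build mm9, so these positions describe the arrangement of the genes and not the counted intervals.

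Because these 2 genes carried the only calls of the test, the 250 bases before the start that RefSeq gives each gene on GRCm38.p6 are shown, 5′ to 3′ on the gene's own strand. The GENCODE record of Gadd45a, whose coordinates are given above, starts further upstream and reaches into its window. Capitals mark matches to the octamer ATGCAAAT, a motif of POU-family factors, and to the CCAAT box, a motif of NF-Y, each searched on both strands. The window of Gadd45a is chr6:67037408-67037657 and that of E230016M11Rik, which lies within intron 3 of Gadd45a, is chr6:67036349-67036598.
Gadd45a: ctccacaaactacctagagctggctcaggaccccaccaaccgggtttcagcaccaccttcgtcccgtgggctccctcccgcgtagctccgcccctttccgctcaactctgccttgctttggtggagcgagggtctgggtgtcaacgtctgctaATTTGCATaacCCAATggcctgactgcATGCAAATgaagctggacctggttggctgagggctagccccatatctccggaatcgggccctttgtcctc
E230016M11Rik: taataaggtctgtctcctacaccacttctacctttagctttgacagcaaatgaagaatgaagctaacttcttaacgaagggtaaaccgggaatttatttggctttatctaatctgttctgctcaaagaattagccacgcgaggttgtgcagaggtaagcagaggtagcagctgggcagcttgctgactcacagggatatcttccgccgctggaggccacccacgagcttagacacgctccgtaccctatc
The Gadd45a window holds 1 octamer in each orientation and 1 CCAAT box between them, and the E230016M11Rik window holds neither motif. Of 32817 windows of the same length, 1.6% hold the octamer and 33.8% the CCAAT box. The 2 motifs do not overlap each other here. A match describes letters only.

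**Figure D1:**
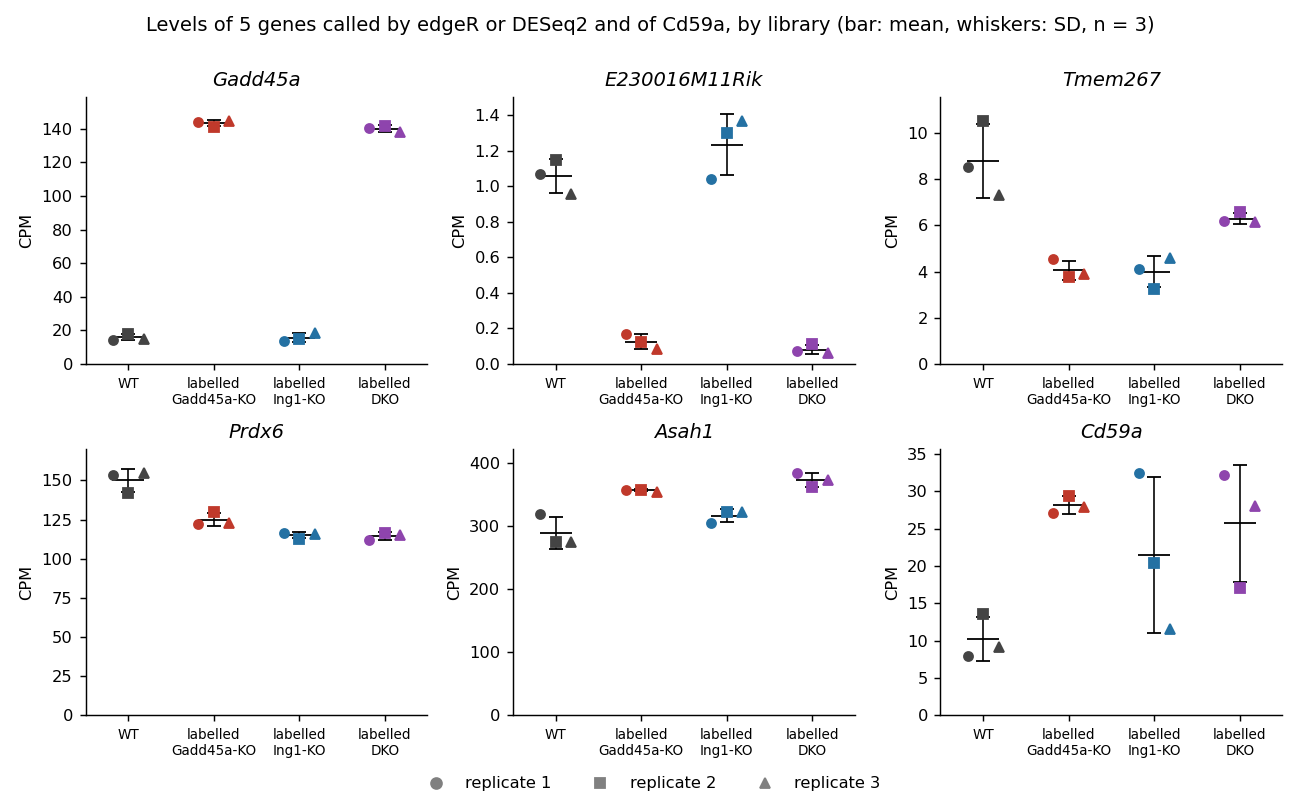
Level in CPM (vertical axis, from 0) of 5 genes called by edgeR or DESeq2 and of Cd59a, in the 12 libraries grouped by genotype label. Points are libraries, the bar is the mean and whiskers the SD (n = 3). Gadd45a is near 140 CPM in the 6 libraries whose label names a Gadd45a lesion and under 20 CPM in the other 6, and E230016M11Rik takes the opposite order.

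Across the genome the comparison was close to flat outside that locus. Of 16163 genes tested, edgeR called 1 higher and 1 lower, or 0.0124%. An unadjusted p under 0.05 was found for 886 genes, or 5.48%, of which 287 were higher and 599 lower, where that threshold alone would give 808. The 3 values of one group lay above the 3 of the other for 744 genes on the higher side (4.6%) and for 1230 on the lower side (7.61%). Of 10837 genes with a mean of at least 5 CPM, the 95% interval of the log2 fold change lay within a 2-fold change either way for 10635, and the median distance from the estimate to its bound was 0.14 on the log2 scale. The count of genes at an unadjusted p under 0.05 depended on single libraries: it was 400 without WT replicate 1, 515 without WT replicate 3, 500 without Gadd45a-KO replicate 3 and 1369 without Gadd45a-KO replicate 1.

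**Figure D2:**
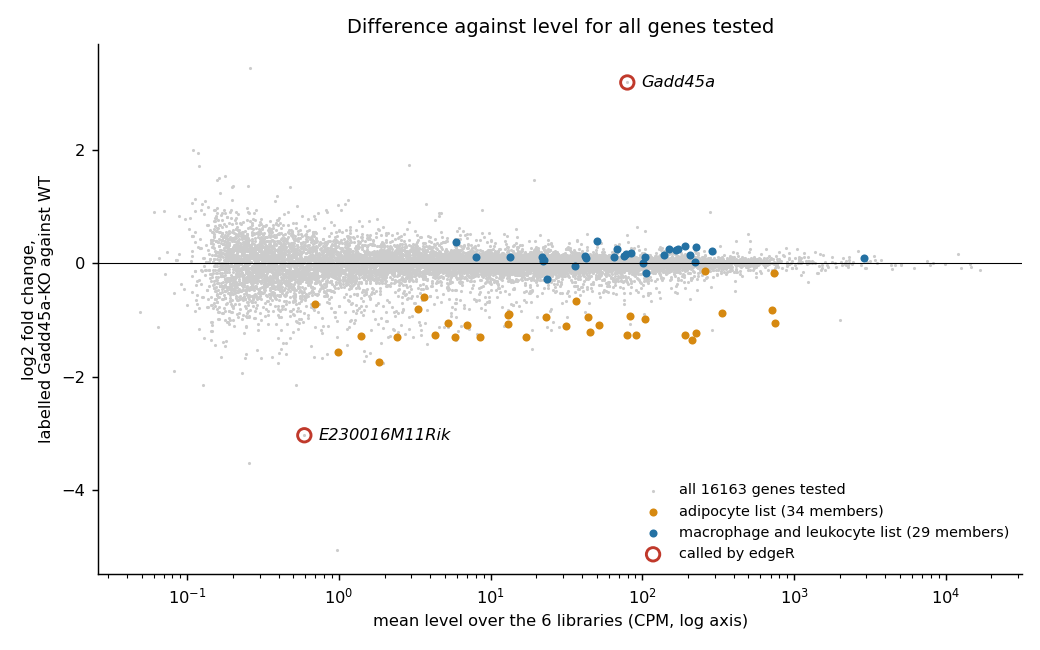
Each grey point is 1 of the 16163 genes tested, with its mean level over the 6 libraries (horizontal, CPM on a log axis) and its log2 fold change in libraries labelled Gadd45a-KO against WT (vertical). Red circles mark the 2 called genes. All 34 members of the adipocyte list (orange) lie below 0, and 25 of 29 members of the macrophage and leukocyte list (blue) lie above it.

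DESeq2, the other count test used, called 6 of 25969 genes (0.0231%), 3 higher and 3 lower. Gadd45a and E230016M11Rik were among them again, as were Asah1, Tmem267 and Prdx6. Tmem267, a transmembrane protein gene, was at 8.52, 10.5 and 7.33 CPM in WT and at 4.54, 3.77 and 3.88 CPM in libraries labelled Gadd45a-KO. The groups do not overlap, and its log2 fold change of -1.11 ± 0.15 came nearest to the edgeR threshold (adjusted p = 0.0624). On the Ing1-/- background Tmem267 had the opposite sign: 6.17, 6.58 and 6.15 CPM in the libraries labelled DKO against 4.13, 3.27 and 4.60 CPM in those labelled Ing1-KO, where it rose by 0.65 (adjusted p = 0.0273, edgeR). Its interaction had an unadjusted p of 4.28e-06 and an adjusted p of 0.0692 (edgeR), so that the difference between the 2 effects was not called.

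Prdx6, a peroxiredoxin that also cleaves phospholipids, was at 154, 142 and 155 CPM in WT and at 122, 130 and 123 CPM in libraries labelled Gadd45a-KO (log2 fold change -0.26 ± 0.04, edgeR adjusted p = 0.181). Its values on the Ing1-/- background were alike in both groups, with a log2 fold change of -0.00. Asah1, which encodes lysosomal acid ceramidase, was at 319, 274 and 275 CPM in WT and at 357, 357 and 354 CPM in libraries labelled Gadd45a-KO (log2 fold change 0.30 ± 0.06, edgeR adjusted p = 0.451). It rose by 0.24 in the libraries labelled DKO against Ing1-KO (adjusted p = 0.0273, edgeR).

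Genes near Gadd45a were read as a group because E230016M11Rik overlaps it. Within 20 Mb, 216 genes other than the overlapping pair were tested and none was called. Their median log2 fold change was -0.01, and the groups did not overlap on the higher side for 2.31% and on the lower side for 10.6%, against 4.6% and 7.61% of all genes. Gng12, a G-protein gamma subunit and the nearest tested neighbour, was at 272, 281 and 288 CPM in WT and at 271, 245 and 258 CPM in libraries labelled Gadd45a-KO (log2 fold change -0.12 ± 0.04). In the libraries labelled DKO against Ing1-KO, 15 of the 216 were called higher and 30 lower, beside 956 and 931 of all 16163 genes tested. Some of these neighbours had differences of the same sign in both comparisons and were called only on the Ing1-/- background. Plekha8, a glycolipid transfer gene, was at 17.7 to 18.1 CPM in WT and at 19.7 to 21.2 CPM in libraries labelled Gadd45a-KO (log2 fold change 0.18), and it rose by 0.34 in the libraries labelled DKO against Ing1-KO (adjusted p = 0.0119, edgeR). Adcyap1r1, the PACAP receptor, was at 7.46 to 9.63 CPM in WT and at 4.37 to 6.87 CPM in libraries labelled Gadd45a-KO (log2 fold change -0.51), and it fell by 1.77 on the Ing1-/- background (adjusted p = 0.0053, edgeR). Nod1, a sensor of bacterial peptidoglycan, had a log2 fold change of -0.36 with overlapping groups, and it fell by 0.96 on the Ing1-/- background (adjusted p = 0.00963, edgeR). These neighbours were singled out after their values were seen, so their values are a description.

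The mRNAs of proteins that Gadd45a works with had a median difference near 0. The list of the Gadd45 family and its kinase partners leaves out Gadd45a itself. Of its 21 tested genes none was called, and the median log2 fold change was -0.02. The groups did not overlap on the lower side for 4 of them (19%, against 7.61% of all genes). On the higher side 1 did not overlap (4.76%, against 4.6%). The paralog Gadd45b was at 29.6, 32.7 and 29.6 CPM in WT and at 33.8, 30.7 and 29.9 CPM in libraries labelled Gadd45a-KO (log2 fold change 0.04, 95% interval -0.15 to 0.22). Gadd45g, the other paralog, was at 69.0, 67.1 and 69.3 CPM against 61.5, 70.4 and 59.4 CPM (log2 fold change -0.10, interval -0.35 to 0.15). Neither paralog thus showed a difference beyond its spread. The kinase Map3k4 was at 10.4 to 11.1 CPM in WT and at 10.4 to 10.7 CPM in libraries labelled Gadd45a-KO. The member with the smallest p was Mapk13, the p38δ kinase, at 4.13, 3.73 and 4.10 CPM in WT against 2.71, 3.02 and 3.01 CPM (log2 fold change -0.45 ± 0.08, adjusted p = 0.451, edgeR). The groups do not overlap for Mapk13 there, and its log2 fold change on the Ing1-/- background was -0.06.

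In the list of DNA methylation and demethylation genes 29 members were tested, none was called, and the median log2 fold change was 0.01. Tdg, the thymine DNA glycosylase, was at 18.9 to 21.4 CPM in WT and at 19.9 to 20.1 CPM in libraries labelled Gadd45a-KO (95% interval of the log2 fold change -0.13 to 0.09). The dioxygenases Tet1, Tet2 and Tet3 had log2 fold changes of -0.02, 0.01 and 0.03, with 95% intervals of -0.19 to 0.14, -0.13 to 0.15 and -0.11 to 0.17. Mbd3, a subunit of the NuRD complex, was at 73.8, 70.2 and 73.2 CPM in WT and at 67.0, 68.5 and 67.1 CPM in libraries labelled Gadd45a-KO (log2 fold change -0.10 ± 0.04, adjusted p = 0.88, edgeR), without overlap.

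Other targets of p53 were also near WT. Gadd45a is such a target, but it was left out of this list, so its call is not counted here. Of 30 tested members none was called, 25 had a positive log2 fold change and the median was 0.04. Cdkn1a, which encodes the CDK inhibitor p21, was at 441, 417 and 445 CPM in WT and at 469, 426 and 435 CPM in libraries labelled Gadd45a-KO (log2 fold change 0.03, 95% interval -0.12 to 0.17). Mdm2, the ubiquitin ligase of p53, had a log2 fold change of 0.01 (interval -0.09 to 0.11), and Trp53 itself 0.01 (interval -0.12 to 0.13). Pmaip1, a BH3-only death gene, had the largest positive value of the list's 3 members with the smallest p, 0.38 ± 0.21, at 16.1, 18.8 and 16.4 CPM against 26.8, 19.7 and 20.2 CPM. The 35 tested proliferation genes had log2 fold changes from -0.12 to 0.10 with none called and none without overlap. Among them the proliferation antigen Mki67 was at 203 to 244 CPM in WT and at 190 to 270 CPM in libraries labelled Gadd45a-KO.

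Genes of the fat cell lay lower in the libraries labelled Gadd45a-KO without passing the test, and WT replicate 2 lay with them. For all 34 tested members of the adipocyte list the log2 fold change was below 0, and its median was -1.08, beside -0.00 over all genes tested. None was called, and 5 had an unadjusted p under 0.05. The groups did not overlap for 22 of the 34 (64.7%), always on the lower side, against 7.61% of all genes. The summed level of the list was 6270, 3549 and 5865 CPM in WT and 3101, 3221 and 2634 CPM in libraries labelled Gadd45a-KO. WT replicate 2 was the lowest WT library for 33 of the 34 members, and its sum stood nearer to the libraries labelled Gadd45a-KO than to the other WT libraries. Replicate 3 was the lowest of the libraries labelled Gadd45a-KO for 28 members. The median was between -0.89 (without WT replicate 1) and -1.34 (without WT replicate 2) when single libraries were left out. The labels do not give the share of cells that had turned into adipocytes, and in bulk RNA fewer adipocytes and less RNA per adipocyte cannot be told apart.

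Fabp4, whose product carries fatty acids within adipocytes, was at 1217, 627 and 1181 CPM in WT and at 526, 539 and 394 CPM in libraries labelled Gadd45a-KO. The groups do not overlap, but WT replicate 2 stood nearer to the libraries labelled Gadd45a-KO than to the other WT libraries. The log2 fold change was -1.05 ± 0.65 with a 95% interval of -2.51 to 0.40 (adjusted p = 0.88, edgeR). An equal level lay within that interval. Adipoq, which encodes adiponectin, followed the same order at 164, 69.0 and 153 CPM against 53.1, 63.2 and 43.0 CPM (log2 fold change -1.27 ± 0.73). The lipid droplet coat gene Plin1 was at 83.6, 36.4 and 70.9 CPM against 26.9, 34.2 and 20.9 CPM. For Cidec, which enlarges lipid droplets, the groups overlapped, because WT replicate 2 at 136 CPM lay below replicate 2 of the libraries labelled Gadd45a-KO at 140 CPM.

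The members with the smallest unadjusted p were Cfd, Lep and Retn, which encode the secreted proteins adipsin, leptin and resistin. Cfd was at 1.66, 0.997 and 1.79 CPM in WT and at 0.508, 0.527 and 0.467 CPM in libraries labelled Gadd45a-KO (log2 fold change -1.56 ± 0.58, adjusted p = 0.88, edgeR). Lep and Retn overlapped between groups through WT replicate 2, which was at 0.802 CPM for Lep and 0.867 CPM for Retn. At the other end Fabp5 and Cav1, which fibroblasts and leukocytes express as well, had log2 fold changes of -0.15 and -0.18, and were singled out after their values were seen. The bound of the interval lay more than 1 from the estimated log2 fold change for 30 of the 34 members, against a median of 0.14 for genes of at least 5 CPM.

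**Figure D3:**
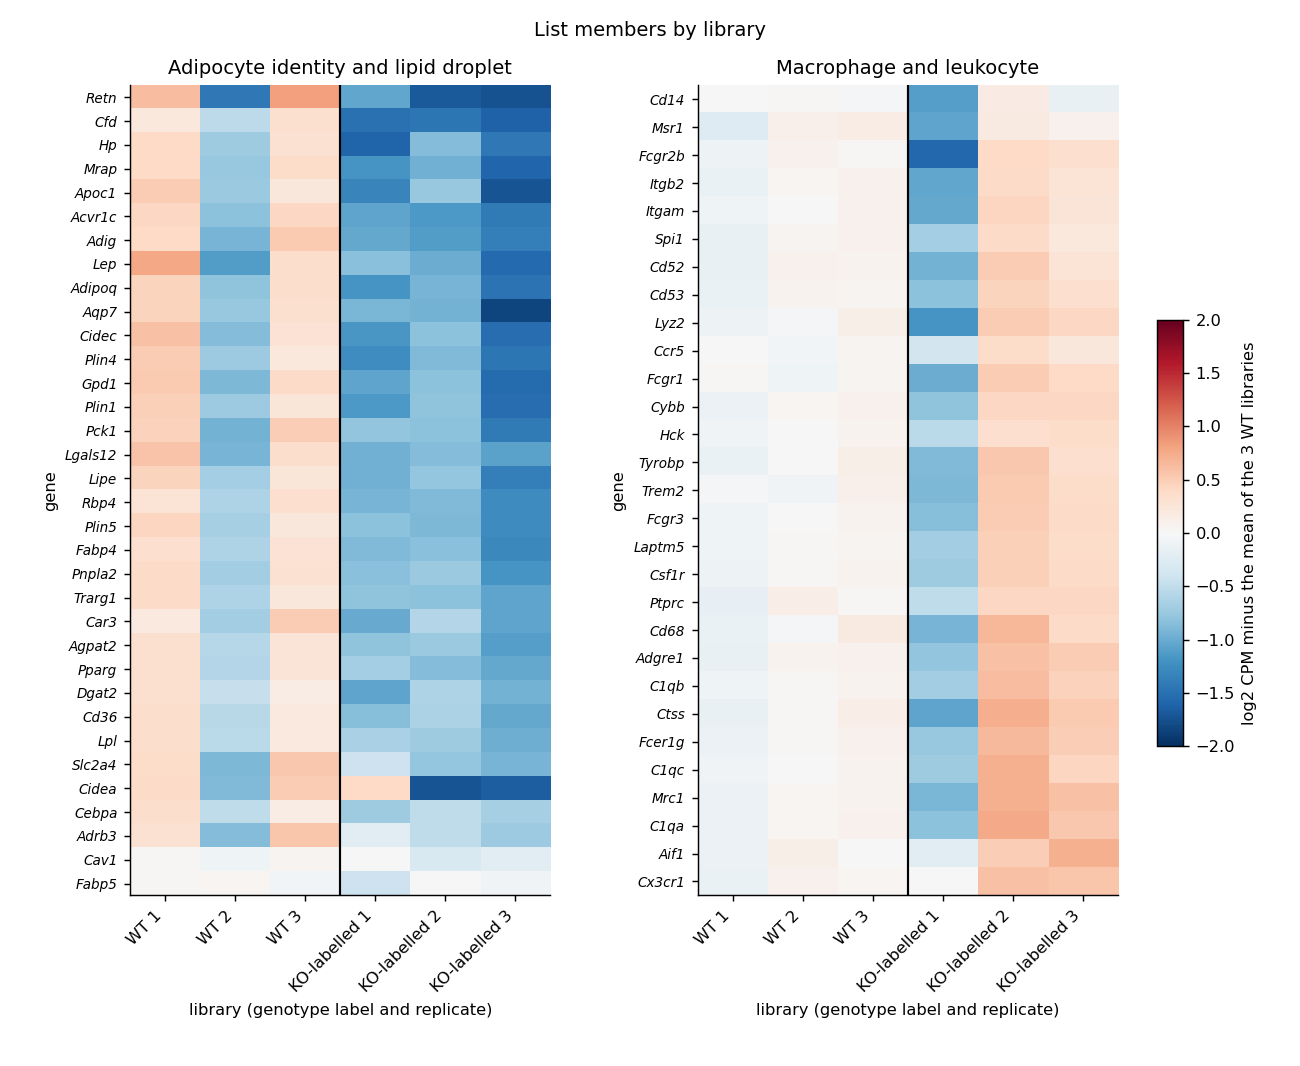
Level of each member of the adipocyte list (left) and the macrophage and leukocyte list (right) in the 6 libraries, as log2 CPM minus the mean of the 3 WT libraries (colour scale from -2 to 2), with genes in the order of their log2 fold change. On the left WT replicate 2 is blue with the libraries labelled Gadd45a-KO. On the right replicate 1 of those libraries is blue and replicates 2 and 3 are red.

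Along the cascade the difference was small at the first factors and larger at the later ones. Cebpb was at 16.7, 16.4 and 16.3 CPM in WT and at 16.01, 16.12 and 15.77 CPM in libraries labelled Gadd45a-KO (log2 fold change -0.04, 95% interval -0.15 to 0.06). Cebpd was at 28.6, 23.5 and 23.4 CPM against 20.4, 22.4 and 20.2 CPM (log2 fold change -0.26 ± 0.11, adjusted p = 0.88, edgeR), without overlap. Pparg was at 20.60, 10.97 and 19.61 CPM against 10.21, 9.002 and 8.066 CPM (log2 fold change -0.91 ± 0.53, interval -2.09 to 0.28), again with WT replicate 2 next to the lower group. Cebpa was at 56.0, 30.9 and 48.6 CPM against 26.9, 30.7 and 27.6 CPM (log2 fold change -0.67 ± 0.32). Nr1h3, the liver X receptor α that PPARγ induces, had a log2 fold change of -0.67 ± 0.29 (adjusted p = 0.88, edgeR). Of 20 tested core regulators none was called, the median was -0.04 and 6 did not overlap on the lower side (30%, against 7.61% of all genes). Genes that hold fibroblasts back from adipogenesis showed no called member among 19 and a median of -0.05, with Dlk1, the preadipocyte Notch ligand, at 104, 104 and 114 CPM against 138, 83.0 and 92.8 CPM. The order of these log2 fold changes along the cascade was not tested.

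Lipid enzymes had the same sign as the adipocyte list at smaller sizes. The lists are not separate sets of genes: Dgat2 is also in the adipocyte list, as are the regulators Pparg and Cebpa and the acute phase gene Hp. In the list of triglyceride synthesis and lipolysis 19 of 21 tested members were negative, the median was -0.53 and 13 did not overlap on the lower side (61.9%, against 7.61% of all genes). Dgat2, which makes triglyceride from diglyceride, was at 20.8, 12.2 and 18.5 CPM in WT and at 8.06, 10.9 and 8.66 CPM in libraries labelled Gadd45a-KO (log2 fold change -0.90 ± 0.37). Its counterpart Dgat1 was at 39.9, 24.9 and 36.7 CPM against 24.2, 24.7 and 21.6 CPM (log2 fold change -0.52 ± 0.22). For both the groups stood apart by little, since WT replicate 2 was just above the libraries labelled Gadd45a-KO. Lpin3, a phosphatidate phosphatase, was at 7.72, 6.81 and 7.39 CPM against 4.67, 6.49 and 5.60 CPM (log2 fold change -0.39 ± 0.12, adjusted p = 0.88, edgeR). Its WT replicate 2 was again the lowest WT library and just above replicate 2 of the libraries labelled Gadd45a-KO.

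All 25 tested genes of fatty acid synthesis and desaturation were negative, with a median of -0.26, none called and 10 without overlap on the lower side (40%, against 7.61% of all genes). Scd1, the main stearoyl-CoA desaturase of adipocytes, was at 3266, 1750 and 3068 CPM in WT and at 1515, 1388 and 1146 CPM in libraries labelled Gadd45a-KO (log2 fold change -0.998 ± 0.608). Fasn, the fatty acid synthase, was at 547, 382 and 497 CPM against 340, 369 and 307 CPM (log2 fold change -0.49 ± 0.19, adjusted p = 0.88, edgeR). Acaca, the acetyl-CoA carboxylase that feeds it, had a log2 fold change of -0.50 ± 0.19. Among 26 tested genes of fatty acid oxidation 24 were negative, with a median of -0.32 and 5 without overlap on the lower side (19.2%, against the same 7.61%). Among 44 genes of oxidative phosphorylation 42 were negative, with a median of -0.14 and 11 without overlap on the lower side (25%, against 7.61%).

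Cholesterol synthesis differed from the adipocyte list in its even, small values. All 24 tested members were negative, from -0.51 to -0.06, with a median of -0.19, and 14 did not overlap on the lower side (58.3%, against 7.61% of all genes). Leaving out WT replicate 2 raised that count to 22, and leaving out Gadd45a-KO replicate 2 to 23. Over all genes tested the lower count rose as well, from 1230 to 2684 and 2445, since fewer samples overlap less often. None was called and 11 had an unadjusted p under 0.05. Fdps, the farnesyl diphosphate synthase, was at 52.6, 46.4 and 47.7 CPM in WT and at 37.9, 42.7 and 41.5 CPM in libraries labelled Gadd45a-KO (log2 fold change -0.26 ± 0.08, adjusted p = 0.88, edgeR). Hsd17b7 was at 85.1, 68.8 and 79.1 CPM against 65.2, 66.2 and 65.1 CPM, and Sqle, the squalene epoxidase, at 133, 121 and 123 CPM against 109, 112 and 113 CPM.

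Secreted acute phase proteins, which fat cells also make, held larger differences of the same sign. Of 16 tested members 15 were negative, with a median of -0.46, and 8 did not overlap on the lower side (50%, against 7.61% of all genes). Orm1, an orosomucoid, was at 4.45, 1.56 and 3.09 CPM in WT and at 0.8664, 1.115 and 0.7005 CPM in libraries labelled Gadd45a-KO (log2 fold change -1.76 ± 0.49, adjusted p = 0.88, edgeR). Haptoglobin, Hp, was at 381, 176 and 357 CPM against 95.1, 157 and 107 CPM. Lrg1 was at 39.3, 14.4 and 30.1 CPM against 8.93, 12.6 and 7.79 CPM (log2 fold change -1.52 ± 0.62). For these genes too WT replicate 2 was the lowest WT library. The 21 tested chemokine ligands had a median of -0.22. Of these, 2 did not overlap on the lower side (9.52%, against 7.61% of all genes) and 1 on the higher side (4.76%, against 4.6%). The 2 lower ones, Ccl7 and Ccl2, draw monocytes and had less spread. Ccl7 was at 125, 109 and 122 CPM against 100, 95.4 and 97.7 CPM (log2 fold change -0.28 ± 0.06, adjusted p = 0.88, edgeR). Ccl2 had a log2 fold change of -0.22 ± 0.07.

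Markers of macrophages and other leukocytes split the libraries labelled Gadd45a-KO. The summed level of the list, all 29 members of which were tested, was 5002, 5401 and 5771 CPM in WT and 2686, 7765 and 7181 CPM in libraries labelled Gadd45a-KO. Replicate 1 was the lowest of the 6 libraries for 28 of the 29 members, and replicates 2 and 3 lay above every WT library for 27. Lyz2, lysozyme, named after its values were seen, was at 2628, 2765 and 3045 CPM in WT and at 1233, 3999 and 3755 CPM in libraries labelled Gadd45a-KO. Adgre1, the macrophage surface protein F4/80, was at 239, 279 and 283 CPM against 153, 401 and 379 CPM. Ptprc, the leukocyte antigen CD45, was at 66.0, 81.4 and 74.9 CPM against 51.7, 98.5 and 98.9 CPM. None of the 29 was called or without overlap, and their median log2 fold change of 0.12 became 0.44 without Gadd45a-KO replicate 1 and -0.08 without Gadd45a-KO replicate 2. No member was at 0 in any of the 6 libraries, and the part of these cells in the other results was not tested.

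Without Gadd45a-KO replicate 1 edgeR called 33 of 16373 genes (0.202%), 30 higher and 3 lower. Of these, 7 of the higher were members of the macrophage and leukocyte list. Apart from Gadd45a, all 29 of the higher genes stood in replicate 1 below every WT library. Taking genes that are called only without that library favours such genes, so this is no separate result. Over the fits that left out 1 library, the sign changed for some of them and held for others. The lowest log2 fold change was -0.05 for Nckap1l and 0.32 for Abca9. Nckap1l, a subunit of the WAVE complex of blood cells, was at 87.7, 93.6 and 100 CPM in WT and at 56.8, 135 and 125 CPM in libraries labelled Gadd45a-KO. Fcer1g, a signalling chain of Fc receptors, was at 57.6, 63.4 and 66.2 CPM against 36.9, 97.5 and 87.7 CPM. Ednrb, the endothelin receptor B, went the other way at 30.5, 29.4 and 31.0 CPM against 38.5, 18.8 and 20.1 CPM. Tmem267 was called lower as well without that library (log2 fold change -1.19, adjusted p = 0.0329, edgeR).

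**Figure D4:**
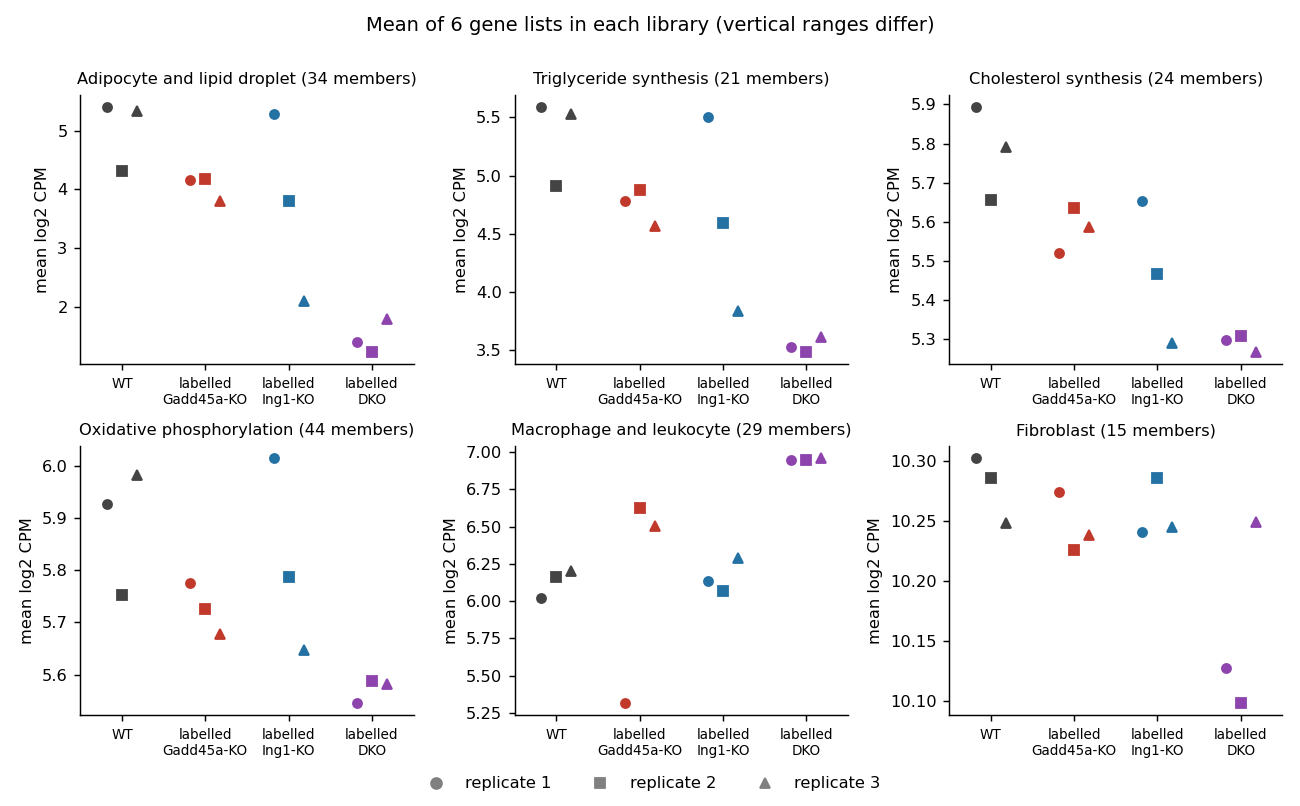
Mean log2 CPM of the tested members of 6 gene lists (vertical axis, range differing by panel) in the 12 libraries, grouped by genotype label; points are libraries and symbols replicates. In the upper panels and for oxidative phosphorylation WT replicate 2 (square) lies close to the 3 libraries labelled Gadd45a-KO. For macrophage and leukocyte genes replicate 1 of those libraries, at 5.316, lies below all others.

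Markers of further cell types were summed in the same way. The endothelial list, with 10 of 14 members tested, summed to 248 to 282 CPM in WT and to 242 to 270 CPM in libraries labelled Gadd45a-KO, nearly all of it Flt1, while Sox17 and Cldn5 were at 0. Skeletal muscle genes summed to 96.2 to 106 CPM and, without overlap, to 71.5 to 88.6 CPM, with the creatine kinase Ckm at 0 and none of 12 tested members called. Most of that sum was Des, also in the contractile list, at 72.6, 73.7 and 64.3 CPM in WT against 50.9, 55.9 and 41.6 CPM. The mean log2 CPM of the 12 tested members did overlap, at 0.224 to 0.339 in WT and at -0.068, 0.310 and 0.079 in libraries labelled Gadd45a-KO. Epithelial genes summed to 15.8 to 17.0 CPM and 14.4 to 18.6 CPM, with Grhl2 and Esrp1 at 0, and erythroid genes to 0.282 to 0.440 CPM and 0.276 to 0.446 CPM, with 5 of 10 members at 0. Neural and glial genes summed to 220 to 229 CPM in WT and to 264, 226 and 205 CPM in libraries labelled Gadd45a-KO. In replicate 1 of those libraries the neuronal genes Map2 and Stmn2 stood at 39.4 and 13.3 CPM, above 18.5 to 22.3 and 5.33 to 6.23 CPM in WT, and the elastin gene Eln at 609 CPM, above 176 to 219 CPM. Map2 and Stmn2 were among 13 tested neural and glial genes, 8 with a positive log2 fold change and 5 with a negative one. Among the 6 libraries compared, that replicate thus stood apart for Map2, Stmn2 and Eln, and for the macrophage and leukocyte genes. In the libraries labelled Ing1-KO and DKO, Map2 was at 31.1 to 44.4 CPM, Eln at 557 to 1241 CPM and Stmn2 at 5.15 to 10.7 CPM.

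Fibroblast, matrix and contractile genes made up much of the RNA and had medians near 0. Col1a1, a chain of type I collagen, was at 16342, 14519 and 14367 CPM in WT and at 14268, 14839 and 13867 CPM in libraries labelled Gadd45a-KO (log2 fold change -0.07, 95% interval -0.23 to 0.08). Acta2, smooth muscle actin, was at 2757, 3543 and 3328 CPM against 3472, 3466 and 3611 CPM (log2 fold change 0.13). The medians of the fibroblast list (15 tested), the collagen and elastic fibre list (28 tested) and the list of contractile and SRF targets (25 tested) were -0.04, -0.02 and 0.05, with none called. In that order 4 (26.7%), 2 (7.14%) and 1 (4%) did not overlap on the lower side, against 7.61% of all genes. On the higher side 1 fibroblast gene did not overlap (6.67%, against 4.6%), and none of the other 2 lists. The 38 gene lists examined leave out Gadd45a and E230016M11Rik, the only genes called by edgeR, so none could hold a called member. Prdx6, called by DESeq2, is a member of the antioxidant list. Lists of signalling and positional genes had medians near 0: 0.00 for 33 Wnt genes, -0.01 for 37 TGF-beta and BMP genes, 0.03 for 18 genes of the IGF axis, 0.05 for 35 Hox genes and 0.06 for 22 imprinted genes. Glucocorticoid targets, which the dexamethasone of the cocktail induces, had a median of -0.26 over 16 genes, 5 of them without overlap on the lower side (31.2%, against 7.61% of all genes).

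Across all tested genes, list members included, those of at least 5 CPM without overlap and with an unadjusted p under 0.05 numbered 134 higher and 323 lower. After Gadd45a the largest positive difference was that of Cd59a, a membrane protein that blocks the complement attack complex. It was at 7.99, 13.5 and 9.16 CPM in WT and at 27.1, 29.4 and 27.9 CPM in libraries labelled Gadd45a-KO (log2 fold change 1.46 ± 0.36, adjusted p = 0.88, edgeR). All 3 lay at over 27 CPM and no WT library above 13.5 CPM, and on the Ing1-/- background its log2 fold change was 0.26 (adjusted p = 0.635, edgeR). The other positive ones were small. Ptn, the growth factor pleiotrophin, was at 406, 511 and 422 CPM against 618, 530 and 601 CPM (log2 fold change 0.39 ± 0.12). Fap, a serine protease of activated fibroblasts, was at 7.49, 7.39 and 6.91 CPM against 11.3, 7.99 and 9.64 CPM (log2 fold change 0.41 ± 0.17). Nrg1, Cthrc1 and Cmklr1, which encode neuregulin, a secreted collagen-like protein and the chemerin receptor, had log2 fold changes of 0.35, 0.32 and 0.28.

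On the negative side the largest were mostly genes in which WT replicate 2 was again low. Enpp2, which encodes autotaxin, was at 44.5, 21.9 and 37.0 CPM in WT and at 16.8, 20.2 and 13.4 CPM in libraries labelled Gadd45a-KO (log2 fold change -1.04 ± 0.44, adjusted p = 0.88, edgeR). Itih5, a hyaluronan-binding inhibitor chain, was at 34.3, 16.5 and 29.7 CPM against 15.54, 14.38 and 11.61 CPM. Mmd and Pdzd2 had log2 fold changes of -0.90 and -0.78 with the same low WT replicate. Mmp3, stromelysin, was at 23.7, 12.8 and 13.8 CPM against 6.23, 11.3 and 10.8 CPM, and Sbsn, suprabasin, at 25.0, 15.4 and 20.9 CPM against 8.93, 15.2 and 10.3 CPM. H2-Q7, an MHC class I gene, was at 7.09, 6.85 and 8.06 CPM against 2.30, 6.35 and 4.05 CPM, but it has near-identical copies between which unique reads cannot be shared out with certainty.

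The same genes were then read in the libraries labelled DKO against Ing1-KO, which carry the same difference in the Gadd45a label. These libraries share the dispersion estimates of the fit that chose the genes, and the lists were chosen with earlier results of all libraries known, so they are no independent check of the choice. There 1887 of 16163 genes were called (11.7%). Of the 162 genes named by the selection rule, Ing1 left out, 31 were called with the sign of the comparison with WT and 4 with the opposite sign. The count of 31 rests on single libraries: it was 4, 2 and 56 without Ing1-KO replicate 1, 2 or 3, 2, 3 and 19 without DKO replicate 1, 2 or 3, and 17 without WT replicate 3. Adipoq was at 53.1 CPM on average in libraries labelled Gadd45a-KO against 128 CPM in WT, and fell by 4.05 on the log2 scale in the libraries labelled DKO against Ing1-KO (adjusted p = 0.0255, edgeR). Fabp4 fell by 2.99 (adjusted p = 0.0299, edgeR), Scd1 by 3.00 (adjusted p = 0.0258, edgeR) and Retn by 6.14 (adjusted p = 0.045, edgeR). Of the adipocyte list 19 of 34 were called lower there, beside 931 of all 16163 genes tested, and the median over all 34 was -3.04. For Adipoq the difference between the 2 effects was -2.78 on the log2 scale with an unadjusted p of 0.0306, and no gene was called for its interaction (edgeR, 0 of 16163 called and 2204 at an unadjusted p under 0.05). DESeq2 called 172 interactions and limma-voom 0.

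The spread among the libraries labelled Ing1-KO was wide for these genes. Their summed adipocyte level was 5501, 2422 and 1372 CPM, against 1321, 1339 and 1372 CPM in those labelled DKO, so that replicate 3 of the libraries labelled Ing1-KO stood at the upper end of those labelled DKO. Macrophage and leukocyte genes summed to 5851, 4992 and 5656 CPM in the libraries labelled Ing1-KO and to 9829, 9385 and 9299 CPM in those labelled DKO. Of the 29 members 6 were called higher, beside 956 of all 16163 genes tested, with a median of 0.79 over all 29. Ptprc rose by 0.81 (adjusted p = 0.035, edgeR) and Aif1, the macrophage protein IBA1, by 1.28 (adjusted p = 0.035, edgeR). In both comparisons then the libraries with the Gadd45a label, other than replicate 1 of those labelled Gadd45a-KO, had the higher sum of these markers. Among genes without overlap, 174 were higher in both comparisons. They are 23.4% of the 744 in the first, beside 17.4% of all genes that were of that kind in the second. They are 6.2% of those in the second, beside 4.6% of all genes in the first. On the lower side 336 were shared, or 27.3% of the 1230 in the first, beside 16.8% of all genes in the second. They are 12.4% of those in the second, beside 7.61% of all genes in the first. Opposite orders were held by 9.01% of the 744 and 3.25% of the 1230.

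**Figure D5:**
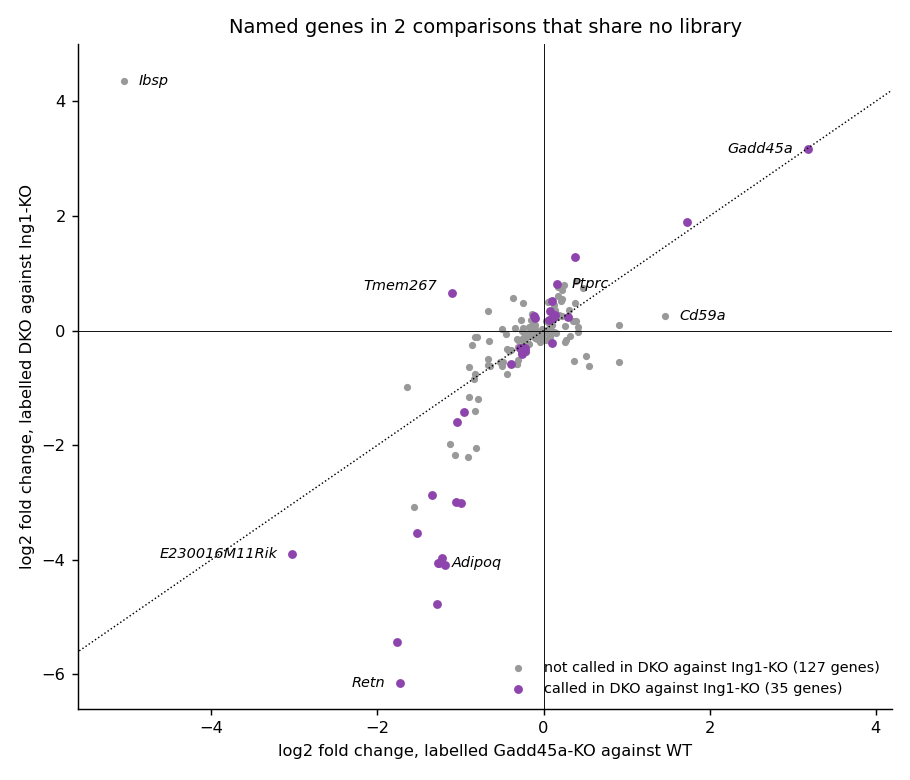
Log2 fold change of the 162 named genes in libraries labelled Gadd45a-KO against WT (horizontal) and in those labelled DKO against Ing1-KO (vertical); the dotted line marks equal values. Purple points are the 35 genes called in the second comparison. Gadd45a lies near the line, adipocyte genes such as Adipoq and Retn far below it, and Cd59a and Tmem267 away from it.

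Smaller sets differed between the comparisons by their values alone. Meg3, an imprinted non-coding RNA, was at 1058, 1001 and 1042 CPM in WT and at 1141, 1063 and 1120 CPM in libraries labelled Gadd45a-KO (log2 fold change 0.10 ± 0.05), and it fell by 0.21 in the libraries labelled DKO against Ing1-KO (adjusted p = 0.0241, edgeR). Its interaction had an adjusted p of 0.171 (edgeR). Cyclin E1, Ccne1, was at 35.5 to 35.9 CPM in WT and at 31.4 to 35.6 CPM in libraries labelled Gadd45a-KO, and it rose by 0.22 on the Ing1-/- background (adjusted p = 0.0263, edgeR). Rrm2, a subunit of ribonucleotide reductase, was at 65.2 to 71.6 CPM against 59.3 to 65.9 CPM, and rose by 0.25 there (adjusted p = 0.0284, edgeR). For Ccne1 and Rrm2 the unadjusted interaction p-values were 0.000824 and 0.00103 (edgeR), neither of which passed the adjustment. Ibsp, a bone sialoprotein gene, was above 1 CPM in only 1 of the 6 libraries, WT replicate 2 at 5.57 CPM, and gave the most negative log2 fold change of all genes, -5.05 ± 2.90.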

How the data were processed

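RNA was sequenced from 12 libraries, 3 for each of 4 genotype labels, and the comparison uses the 3 labelled WT and the 3 labelled Gadd45a-KO. The deposited values are raw read counts per gene, made by the authors with TopHat2 2.0.9, Bowtie2 2.1.0 and HTSeq 0.5.4 on mm9 (NCBIM37), per the submitters' processing notes. For the strand setting and the counting mode nothing is given in the sources used here. Between 24.2% and 24.85% of each table's reads stood in the lines that name no gene, and library sizes and tests do not include them. Of 37991 identifiers 32919 matched a symbol in the reference tables.

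The counts of all 12 libraries were fitted in R 4.3.3 with edgeR 4.0.16 (TMM factors, filterByExpr, robust quasi-likelihood dispersions, 4 genotype means), and p-values were adjusted by Benjamini-Hochberg over the 16163 genes tested. An SE is the absolute log2 fold change over the root of F. DESeq2 1.42.0, limma 3.58.1 (voom), other scaling factors and filters, a replicate block and each library left out were alternatives. Scripts were tested on simulated data. Same-numbered libraries deviated together with r of 0.099, -0.008 and -0.006 across genes. These few values show no clear pairing by replicate number and cannot exclude one. Replicates differed by more than sampling noise, with a chi-square per degree of freedom of 5.883 to 46.43, so each counted as 1 sample.

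The 38 gene lists and the rules were chosen with earlier results of these data known. The genes named are Gadd45a, Ing1 and those called by edgeR or DESeq2, the 10 largest non-overlapping differences each way at a mean of at least 5 CPM and an unadjusted p under 0.05, the 8 with the smallest adjusted p without Gadd45a-KO replicate 1, the 3 members of each list with the smallest p, and a set of adipogenic, Gadd45-related and marker genes taken whatever their values. Lists were described by counts and medians and were not tested. The lists the report does not describe had these medians, with none called by edgeR: glucose uptake and insulin response -0.11, brown and beige adipocyte -0.63, cartilage and bone -0.05, CDK inhibitors 0.01, ING and SIN3 complex 0.03, integrated stress 0.03, antioxidant -0.05, interferon-stimulated -0.08 and lysosome 0.05. Of the genes these rules take, 2 are not reported here.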

Additional observations from a re-analysis of the deposited data

How the results depend on the processing

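Gadd45a was called higher under every alternative run, with log2 fold changes of 3.12 to 3.28 over the fits that left out 1 library. The count of genes called higher was 3 with DESeq2 and 1 to 30 over the fits that left out 1 library, with 30 without Gadd45a-KO replicate 1. The count called lower was 2 without the filter on low counts, 0 at a mean of at least 5 CPM, where E230016M11Rik was no longer tested, 3 with DESeq2 and 1 to 3 with 1 library left out. Genes at an unadjusted p under 0.05 numbered 400 to 1369 with 1 library left out. Genes without overlap numbered 1145 to 2406 on the higher side and 1693 to 2684 on the lower side with 1 library left out, since fewer samples overlap less often. The median of the adipocyte list was -0.89 to -1.34, and that of the macrophage and leukocyte list -0.08 to 0.44. Of the named genes, 12 were called with the same sign in DKO against Ing1-KO without the filter, 59 with DESeq2, 20 with limma-voom, 20 with only the 6 libraries compared, and 2 to 56 with 1 library left out. The cause of these differences was not tested. With the replicate block edgeR called 1 gene higher and 1 lower in the comparison with WT, 845 genes had an unadjusted p under 0.05, and 27 named genes were called in DKO against Ing1-KO. No clear pairing by replicate number was seen, though so few values cannot exclude one. Same-numbered libraries correlated at 0.099, -0.008 and -0.006, and the highest value for unlike numbers was 0.121. With 3 libraries a group, genes of low level or wide spread, adipocyte genes among them, have intervals too wide to show changes of the size measured.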
